A study of Mus musculus with 2 samples.

Results

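The genes described here are 10 members of the Wnt pathway that act in or respond to its nuclear step: the Tcf/Lef factors Lef1, Tcf7, Tcf7l1 and Tcf7l2, their cofactor Ctnnb1, and the response genes Axin2, Sp5, Nkd1, Nkd2 and Kremen2. They were taken by symbol from the 32285 genes of the count files, and all 10 were listed. Their levels were read in single-cell RNA libraries of epithelial cells taken from mouse back skin at postnatal day 1, one bearing the label PADI4 WT and the other PADI4 cKO, and both of batch 1. Both libraries came from mice with K14-Cre and a tdTomato reporter, so that the sorted cells are those in which the keratin 14 promoter has driven Cre. The dermal fraction, which holds the growing hair follicles (HFs), was used after most of the epidermis had been peeled off. The animals of the library labelled PADI4 cKO also carried the floxed Padi4 fl/fl allele, and the extraction protocol in the labels names this allele for both libraries. The number of animals per library was not given in the sources used here.

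In the canonical Wnt pathway, a Wnt ligand bound to Frizzled and Lrp receptors stops the destruction of β-catenin, which then enters the nucleus and acts with the Tcf/Lef factors on the DNA. Without β-catenin these factors recruit repressors, and Tcf7l1 is known mainly as a repressor while Lef1 is known mainly as an activator. Several genes that the pathway switches on, such as Axin2 and Nkd1, act back on it as inhibitors. In skin, Wnt signals are needed to start an HF, and Lef1 is a well-known marker of the hair matrix and the precursors of the hair shaft.

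The promoter of Sp5, a zinc-finger factor that is a classical direct target of β-catenin, is shown because it was the single member promoter with a copy of the letters that Tcf/Lef factors prefer. The 250 bases before the RefSeq start site of Sp5 (chr2:70474673-70474922, plus strand, GRCm38.p6) read as follows, with the copy of CTTTGAT in capitals.
Sp5 promoter: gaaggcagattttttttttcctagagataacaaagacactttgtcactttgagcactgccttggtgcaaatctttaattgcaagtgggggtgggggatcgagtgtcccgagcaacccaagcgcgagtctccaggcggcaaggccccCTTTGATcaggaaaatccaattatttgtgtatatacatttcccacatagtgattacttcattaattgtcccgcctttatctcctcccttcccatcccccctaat
The copy starts 104 bases before the start site. CTTTGAT and CTTTGAA were searched on both strands in the 250 bases before each RefSeq start site, and 7.48% of 32851 such windows held at least 1 of them. None of the listed windows of the other 9 members did. A match is a description of the letters and not of binding.

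By GENCODE M21 on GRCm38, which matched 32235 of the 32285 gene identifiers of the files, Lef1 lies at chr3:131110471-131224356, Tcf7 at chr11:52252371-52283014, Tcf7l1 at chr6:72626378-72789254 and Tcf7l2 at chr19:55741820-55933654. Ctnnb1 lies at chr9:120929216-120960507, Axin2 at chr11:108920349-108950783 and Sp5 at chr2:70474923-70477729. Nkd1 lies at chr8:88521354-88594884, Nkd2 at chr13:73818534-73847631 and Kremen2 at chr17:23741197-23745833. All 10 are protein-coding. Ctnnb1 overlaps the protein-coding gene Ulk4 on the opposite strand, and Lef1, Tcf7, Tcf7l1, Axin2, Kremen2 and Ctnnb1 overlap listed antisense genes. Tcf7l2 holds the gene Ppnr on its own strand. Reads of such neighbors cannot be told apart where strand was not used or is shared.

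Each library held about the same number of unique molecular identifiers (UMIs, each marking 1 captured molecule), 143938990 with the label PADI4 WT and 143945294 with the label PADI4 cKO. After filtering, 8070 and 7393 cells remained, with a median of 14670 and 16208 UMIs, and 14 cell barcodes occurred in both libraries. Once fibroblast-like and melanocyte-like cells had been set aside, 7996 and 7357 epithelial cells were kept. The summed level of 5 fibroblast markers reached at most 17.4 CPM (UMIs per 1000000 UMIs of the same cells) in an epithelial class, against 3620 and 5175 CPM in the fibroblast-like cells. Leiden clusters were named from marker lists, without use of the 10 genes, and joined by name into 12 classes with at least 50 cells in each library. They are the lower proximal cup (LPC-like), the germinative layer (GL-like), the inner and outer root sheath (IRS-like, ORS-like), the upper HF (uHF-like), the interfollicular epidermis (IFE-like), the sebaceous gland (SG-like), and 5 clusters that met no name. Among the latter, cluster 13 was led by hair-shaft genes (Dsg4, Krt35, and Krt86) and had markers of the germinative layer and of the hair cortex raised. Cluster 14 was led by Gpnmb and Krtap8-1 and had 4 medulla markers raised beside 8 of the germinative layer. Among the classes it also had the highest summed level of 4 melanocyte markers, 70.5 and 116 CPM, against 13349 and 8375 CPM in the melanocyte-like cells. Cluster 11 had Tagln, Olfml2b, and Acta2 among its leading genes, cluster 15 was led by Krt6a and Wfdc18, and cluster 16 by Krt75, a companion layer keratin.

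With 1 library per label there was no replicate and no test across animals. Intervals are exact 95% intervals that cover counting error only. Classes are said to overlap where their intervals, taken over both libraries, do. Padi4 itself had 98 UMIs among the PADI4 WT cells and 92 among those labelled PADI4 cKO, a log2 ratio of −0.11 (−0.54 to 0.31), so the libraries are named by their labels throughout. Of the PADI4 WT epithelial cells 59.8% held Y-linked UMIs without Xist UMIs and 26.7% the reverse, whereas in the library labelled PADI4 cKO 99.7% held Xist UMIs without Y-linked ones. Sex and genotype label therefore cannot be told apart between the libraries as a whole.

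Lef1, the activating factor of the hair matrix, had its highest level in cluster 14, where it stood at 2216 CPM (2159 to 2274) in the PADI4 WT library and at 2137 CPM (2072 to 2203) in the other, and every one of the 189 and 125 cells held a Lef1 UMI. Cluster 13 followed with 1312 and 1233 CPM and the GL-like cells with 868 and 834 CPM. The intervals of these classes did not overlap, so this order held in both libraries.

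The LPC-like cells, the progenitors that wrap the dermal papilla, held 374 CPM of Lef1 in the PADI4 WT library, and with the label PADI4 cKO 405 CPM, below cluster 15 at 499 and 500 CPM. Cluster 15 held 150 and 58 cells, with medians of 9514 and 26753 UMIs, which limits its comparison between libraries and with other classes. Of its PADI4 WT cells 26.7% held Xist UMIs alone and 35.3% Y-linked UMIs alone. The part of doublets in it is not given here. The IRS-like cells held 253 and 254 CPM. ORS-like cells held 45.3 and 46.7 CPM, cluster 11 held 33.3 and 42.1 CPM, and the SG-like cells were lowest with 29.2 CPM (19.4 to 42.3) and 27.0 CPM (17.8 to 39.3). Cluster 11 overlapped both neighbors in this order. The highest class was thus 75.8-fold and 79.1-fold above the lowest. The lowest level rests on few cells. Of the 28 SG-like Lef1 UMIs of the PADI4 WT library, 23 came from 4 cells with both Xist and Y-linked UMIs. The 36 SG-like cells with Y-linked UMIs alone held 7.60 CPM, and the 13 with Xist UMIs alone held 0 UMIs. Free RNA made up at most 7.91% and 6.73% of the UMIs, as judged from collagen and hemoglobin genes over all epithelial cells of a library. At that average share it could give up to 20.5 and 16.9 CPM of Lef1, against 29.2 and 27.0 CPM in the SG-like cells. The share in a single class or cell was not estimated, here and below.

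**Figure D1:**
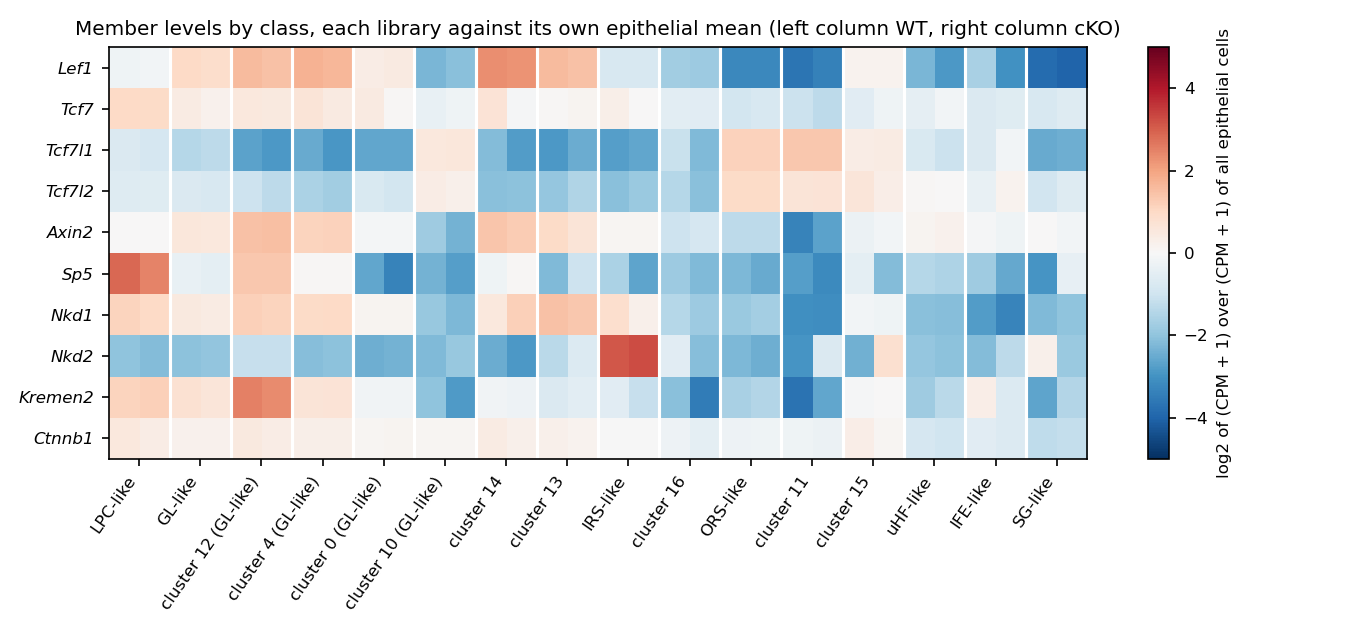
Heat map of the 10 genes (rows) in the classes and in the 4 clusters that make up the GL-like class (columns, with the PADI4 WT library left and the library labelled PADI4 cKO right), as log2 of (CPM + 1) over that of all epithelial cells of the same library. In clusters 13 and 14 and in the GL-like clusters 0, 4 and 12, Lef1 is above the level of all epithelial cells while Tcf7l1 and Tcf7l2 are below theirs, Nkd2 stands out in the IRS-like cells and Sp5 in the LPC-like cells.

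Within the GL-like class Lef1 was not uniform. Cluster 4, with Mt4 and Msx1 among its leading genes, held 1445 and 1411 CPM, cluster 12, led by Nr4a3 and Shh, held 1294 and 1254 CPM, and cluster 0, led by Kit and Gfra3, held 572 and 606 CPM. Cluster 10, led by Plcxd3 and Phactr1 and named from 3 markers of the germinative layer, held 88.3 and 104 CPM. Of its PADI4 WT cells 31.5% had a Lef1 UMI after thinning to 5000 UMIs per cell, against 98.8% in cluster 4. Its Tcf7l1 level was 300.0 and 290.1 CPM, while the other 3 GL-like clusters ranged from 31.9 to 35.2 CPM in the PADI4 WT library. Cluster 10 was therefore closer to the ORS-like cells than to the other GL-like clusters in both genes.

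Tcf7l1, the factor known mainly as a repressor and a marker of the bulge and outer root sheath, ran the other way. It was highest in cluster 11, with 528 CPM (510 to 545) in the PADI4 WT library and 496 CPM (478 to 515) in the other, and next in the ORS-like cells with 463 and 439 CPM. Cluster 15 held 269 and 263 CPM and the LPC-like cells 125 and 110 CPM. The lowest levels were those of cluster 13 (27.2 and 34.5 CPM), the IRS-like cells (29.9 and 31.9 CPM), the SG-like cells (35.5 and 35.0 CPM) and cluster 14 (45.6 and 27.6 CPM), each of which overlapped the next. Among the ORS-like clusters Tcf7l1 ranged from 271 CPM in cluster 2 to 624 CPM in cluster 9 of the PADI4 WT library, and from 263 to 616 CPM in the other.

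Tcf7l2, a factor that can activate or repress, was highest in the ORS-like cells, with 623 CPM (614 to 631) and 662 CPM (654 to 671). Cluster 11 held 510 and 544 CPM, cluster 15 held 487 and 434 CPM and the uHF-like cells 334 and 346 CPM. At the lower end stood cluster 14 with 73.9 and 81.3 CPM and the IRS-like cells with 74.98 and 93.9 CPM. Cluster 16, with 119 and 79.9 CPM, was the lowest class of the library labelled PADI4 cKO. The range of Tcf7l2 was 8.43-fold and 8.29-fold, narrower than the 19.4-fold and 18.0-fold of Tcf7l1. In the SG-like cells both Tcf7l1 and Lef1 were low while Tcf7l2 held 167 and 219 CPM.

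**Figure D2:**
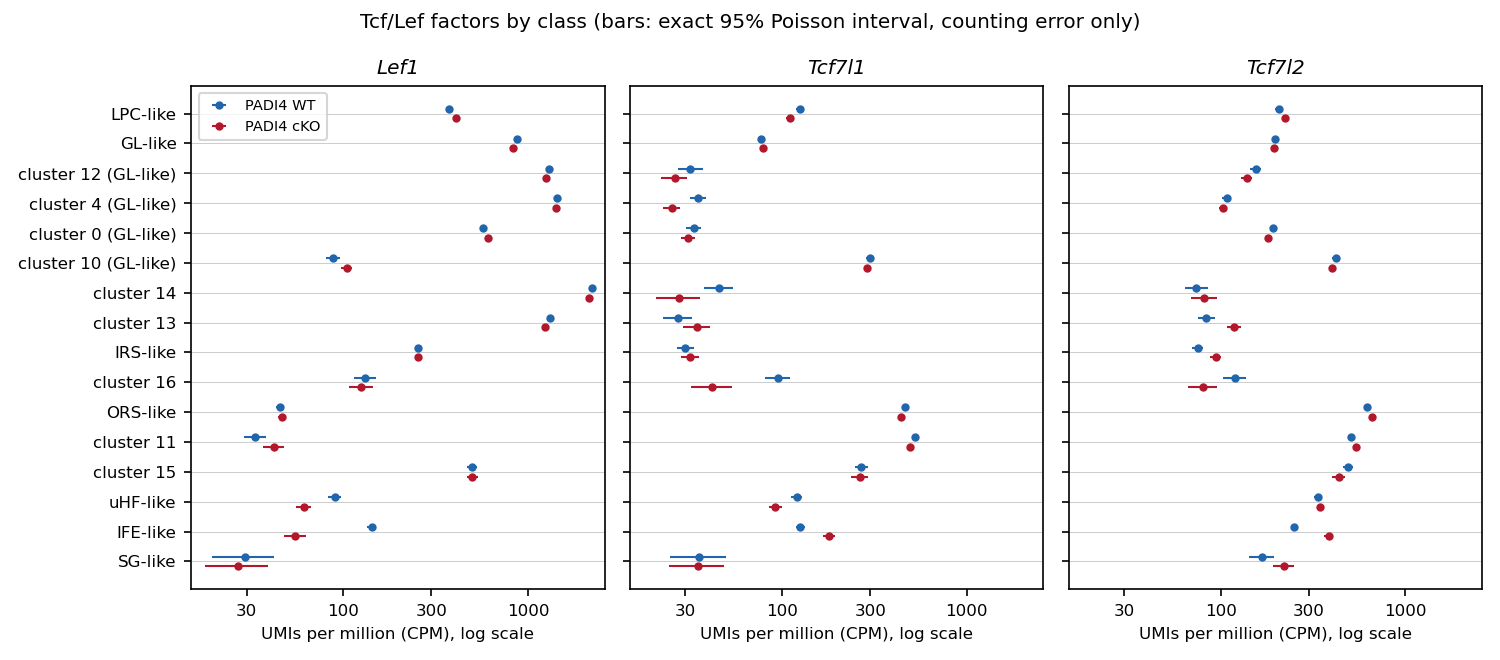
Levels of Lef1, Tcf7l1 and Tcf7l2 (x axis, CPM on a log scale) in each class and GL-like cluster (y axis), with 1 point per library and exact 95% Poisson intervals. Lef1 runs from 29.2 and 27.0 CPM in the SG-like cells to 2216 and 2137 CPM in cluster 14, and cluster 10 lies nearer to the ORS-like cells than the other 3 GL-like clusters do in each panel.

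Tcf7, the fourth factor of the family, was scarce. The LPC-like cells were highest with 34.5 CPM (31.0 to 38.2) in the PADI4 WT library and 38.6 CPM (35.5 to 42.0) in the other. Cluster 11 was lowest with 7.53 and 7.17 CPM, a range of 4.58-fold and 5.39-fold. Each class overlapped the next in this order, while the LPC-like cells did not overlap the GL-like cells (23.1 and 22.1 CPM).

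Ctnnb1, which encodes β-catenin and also serves cell adhesion, was the flattest of the 10 genes. It stood at 597 CPM (582 to 611) and 540 CPM (528 to 552) in the LPC-like cells and at 169 CPM (144 to 197) and 184 CPM (158 to 213) in the SG-like cells. The ratio of these extremes was 3.53 and 2.93. The mRNA level does not measure the stabilized protein.

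Axin2, a scaffold of the complex that destroys β-catenin and a widely used readout of Wnt activity, was highest in cluster 14 with 106 CPM (94.3 to 120) and 101 CPM (86.8 to 116). Cluster 13 held 78.1 and 64.4 CPM and overlapped the GL-like cells at 59.6 and 59.1 CPM. From there 6 classes (uHF-like, IRS-like, LPC-like, SG-like, IFE-like and cluster 15) lay between 33.0 and 47.9 CPM, each overlapping the next. Axin2 thus did not set the LPC-like cells apart from the uHF-like cells, although their Lef1 levels were 374 and 89.7 CPM in the PADI4 WT library. ORS-like cells held 15.5 and 15.7 CPM, and cluster 11 was lowest with 3.07 and 5.56 CPM, where free RNA could give 2.64 and 2.22 CPM. Among the single clusters, cluster 12 of the GL-like class, with Shh and the ligand Wnt10b among its leading genes, had 114 CPM (105 to 123) and 119 CPM (110 to 128), which overlapped cluster 14.

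Nkd1, an inhibitor that binds Dishevelled, was highest in cluster 13 with 64.3 CPM (57.1 to 72.3) and 70.8 CPM (62.8 to 79.5), followed by the LPC-like cells with 50.5 and 55.6 CPM, which overlapped it. In cluster 14 the libraries differed, with 33.3 CPM (26.7 to 41.1) and 63.5 CPM (52.8 to 75.9). Below 8 CPM lay cluster 16, the ORS-like, SG-like, uHF-like and IFE-like cells and cluster 11.

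Its relative Nkd2 was concentrated in the inner root sheath among the epithelial classes. The IRS-like cells held 65.8 CPM (61.2 to 70.6) in the PADI4 WT library and 69.4 CPM (64.3 to 74.7) in the other. ORS-like cells held 0.640 and 0.346 CPM and GL-like cells 0.870 and 0.853 CPM, levels at which free RNA could give up to 0.675 and 0.899 CPM. Cluster 15 of the library labelled PADI4 cKO was the next highest with 11.5 CPM, against 0.465 CPM in its PADI4 WT cells. After thinning to 5000 UMIs, 20.2% and 21.0% of the IRS-like cells had an Nkd2 UMI, against 0.265% and 0.127% of the ORS-like cells.

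Sp5 marked the LPC-like cells, with 55.6 CPM (51.2 to 60.3) and 58.9 CPM (54.95 to 62.96). The next level was that of cluster 12 in the GL-like class, with 18.8 CPM (15.2 to 22.9) and 26.0 CPM (22.0 to 30.5), and cluster 4 held 7.104 and 10.12 CPM. Cluster 0, another GL-like cluster, held 0.283 and 0.0593 CPM from 4 and 1 UMIs. ORS-like cells held 0.671 and 0.866 CPM, where free RNA could give 0.701 and 0.637 CPM. In the SG-like cells 0 UMIs of Sp5 were found in the PADI4 WT library, which allows up to 3.13 CPM if 3 UMIs are taken as the limit, and 7 UMIs (6.999 CPM, 2.81 to 14.4) with the label PADI4 cKO. Of the thinned LPC-like cells, 18.8% and 19.3% had an Sp5 UMI.

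Kremen2, a receptor for the Dickkopf inhibitors that removes Lrp6 from the surface, was highest in the LPC-like cells among the 12 classes, with 69.6 CPM (64.7 to 74.9) and 75.8 CPM (71.4 to 80.4). Among single clusters the highest was cluster 12, with 184 CPM (173 to 196) and 168 CPM (158 to 179). Clusters 0, 4 and 10 of the same GL-like class held 27.6, 49.8 and 7.03 CPM in the PADI4 WT library. Cluster 12 was thus high in Kremen2, Axin2, Sp5, Nkd1 and Lef1 together, in both libraries.

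**Figure D3:**
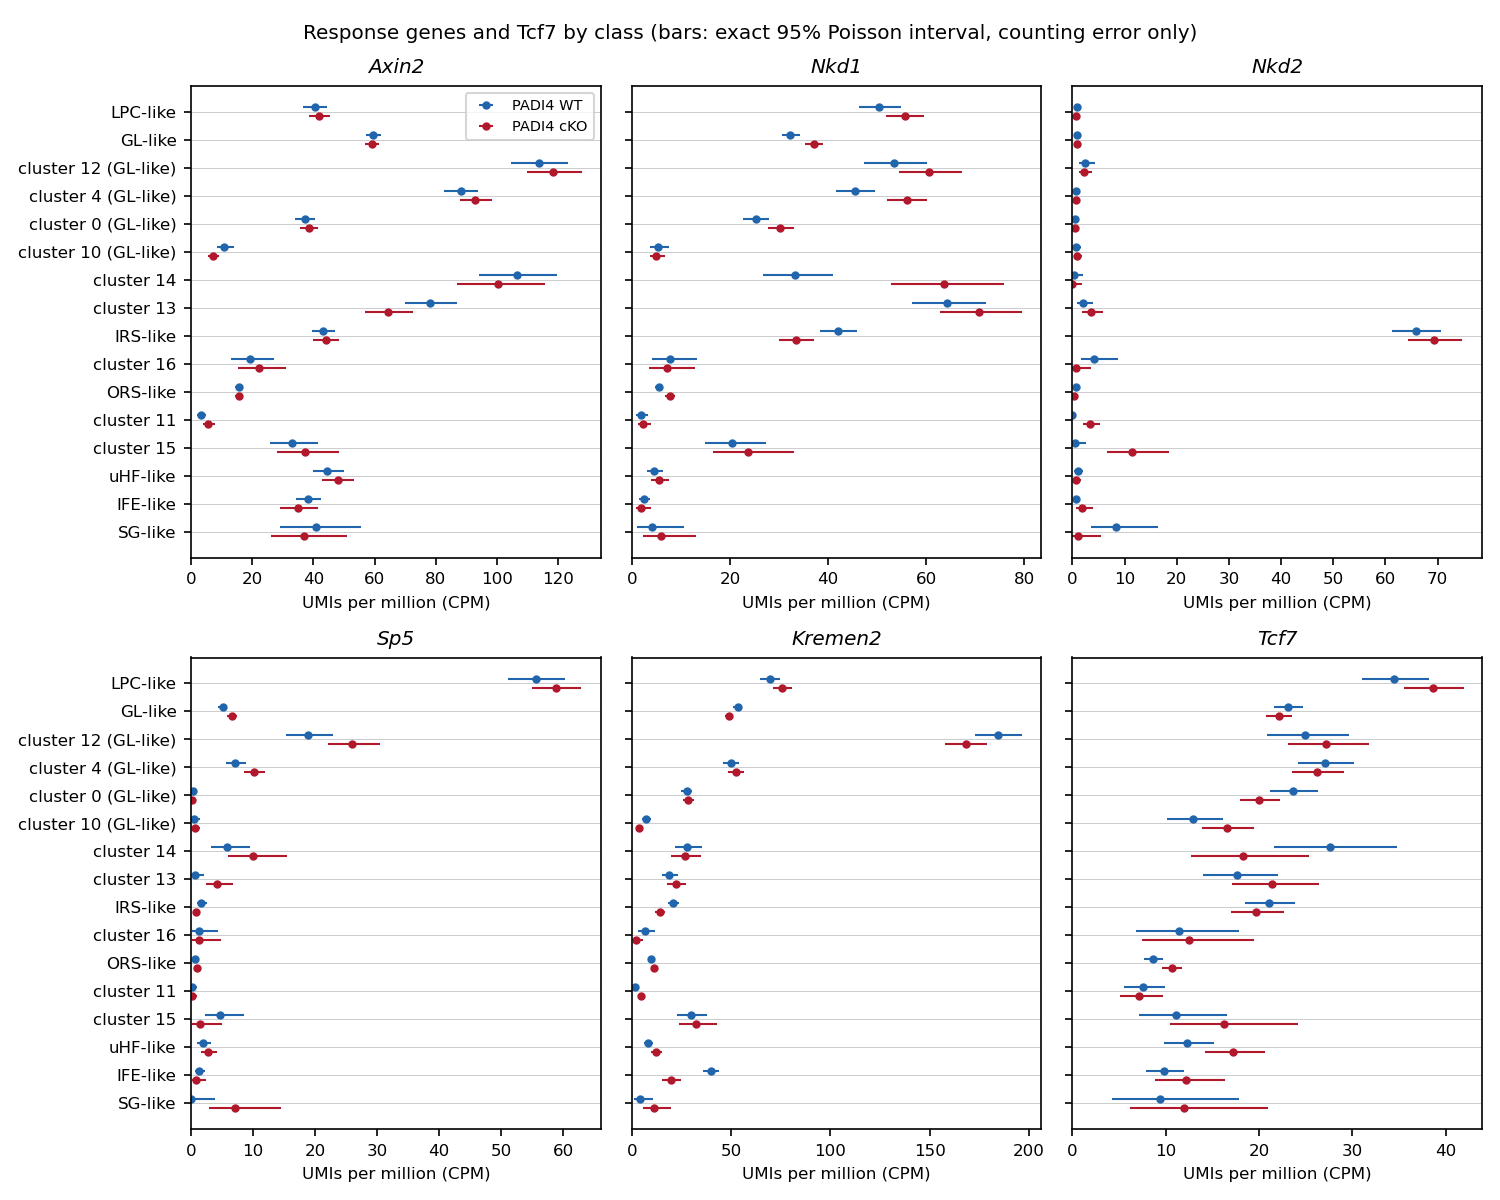
Levels of Axin2, Nkd1, Nkd2, Sp5, Kremen2 and Tcf7 (x axis, CPM) in each class and GL-like cluster (y axis), with 1 point per library and exact 95% Poisson intervals. Cluster 12 is highest in Kremen2 (184 and 168 CPM), the LPC-like cells in Sp5 (55.6 and 58.9 CPM) and the IRS-like cells in Nkd2 (65.8 and 69.4 CPM).

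Of the 10 genes, 9 differed by over 4-fold between the highest and lowest class in both libraries, with levels below 3 UMIs set to 3. Among all 8778 genes that reached 20 CPM in some class of both libraries, 32% did so. The remaining gene was Ctnnb1.

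Pairs of members were compared by Pearson's r of log2(CPM + 1) over the 12 classes, as a description. The classes share libraries and depth, and 7 of the 45 pairs had r over 0.7 in both libraries, against 1.99% of the pairs among genes that reached 20 CPM in some class of both libraries. The closest pair was Tcf7l1 and Tcf7l2 with r of 0.91 and 0.92, followed by Lef1 and Nkd1 with 0.84 and 0.91. The others were Lef1 with Ctnnb1, Nkd1 with Ctnnb1, and Tcf7 with Nkd1, Sp5 and Kremen2. Lef1 and Axin2 had 0.73 and 0.69. The single pair under −0.7 in both libraries was Tcf7l1 and Axin2, with −0.76 and −0.72. Nkd2 was in no such pair, with r between −0.62 and 0.24 to every other member.

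When 19 clusters of at least 50 cells per library were taken singly, an alternative added after the clusters had been seen, 15 pairs had r over 0.7 in both libraries, against 1.68% of the pairs among genes chosen in the same way. Lef1 and Axin2 then had 0.81 in both libraries, Lef1 and Tcf7l1 −0.72 in both, and Tcf7l1 and Axin2 −0.84 and −0.81. The opposite course of Lef1 and Tcf7l1 was weaker over the 12 joined classes, with −0.47 and −0.44. The IRS-like and SG-like cells, low in Tcf7l1 without being high in Lef1, are points in both settings. Why the values differ between the settings was not tested.

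**Figure D4:**
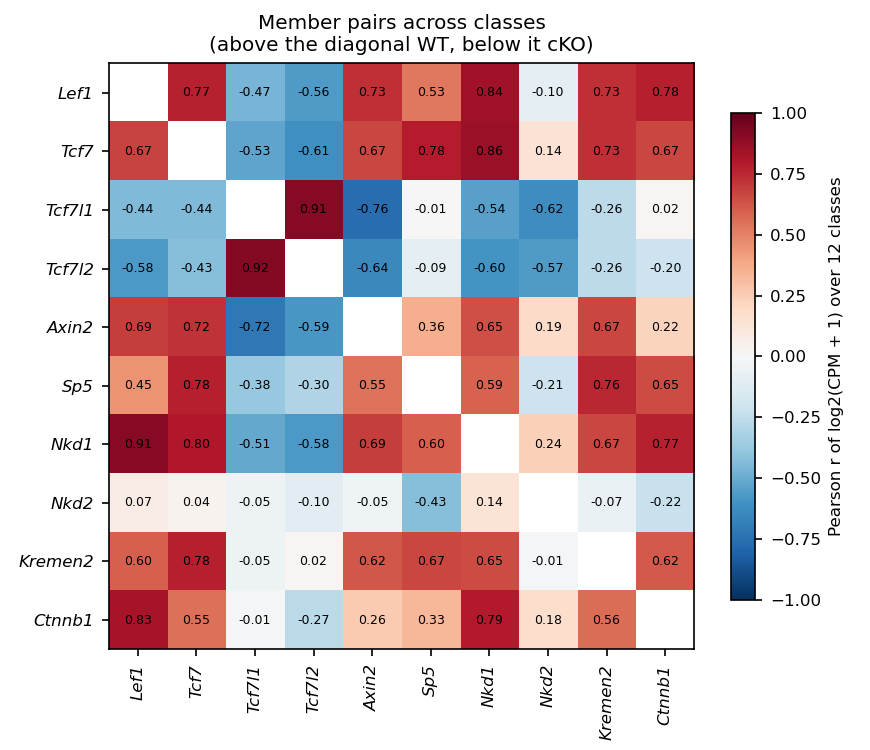
Pearson's r between members over 12 classes, above the diagonal for the PADI4 WT library and below it for the library labelled PADI4 cKO. Tcf7l1 and Tcf7l2 form a pair (0.91 and 0.92) with negative values to Lef1, Tcf7, Axin2 and Nkd1, and Nkd2 stands alone.

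The genes whose course over the 24 points of both libraries was most like that of Lef1 were Mt4 and Pcdh19 (r = 0.96 each) and Notum (0.95), which encodes an enzyme that inactivates Wnt ligands. For Tcf7l1 they were Il17rd, Edn2, and Slc38a2 (0.96, 0.96, and 0.94), and for Tcf7l2 they were Anxa6, Isoc1, and Ctdspl2 (0.95, 0.94, and 0.94). Axin2 was most like the ribosomal protein gene Rpl13a (0.92), and its list also held Apcdd1 (0.91), a membrane inhibitor of the pathway. Nkd1 was most like Bach2 (0.98), which also stood among the closest genes of Tcf7 (0.86). Nkd2 was most like Krt73, Fbp1, and Dsc1 (0.91, 0.87, and 0.80), and Krt73 is a keratin of the inner root sheath that named the class. Sp5 was most like Rarb, Usp48, and Wif1 (0.90, 0.82, and 0.81), the last a secreted Wnt inhibitor, and Kremen2 was most like Has3, Bmp2, and Tango6 (0.89, 0.88, and 0.87). For Ctnnb1 the list was Rpap3, Ulk4, and Pkig (0.93, 0.93, and 0.92), and Ulk4 is the gene that overlaps it on the opposite strand. Smarcd2 and Snhg5 completed the list of Tcf7 (0.87 and 0.86).

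Within a class, detection of 2 members in the same cell was read after thinning each cell to 5000 UMIs, which left out 436 and 124 shallower cells. In cluster 14 all thinned cells had Lef1, so that the share with Lef1 and Axin2, 37.1% (30.1 to 44.5) of the 186 PADI4 WT cells, was that of Axin2 alone. In the 469 PADI4 WT LPC-like cells 15.8% had both Lef1 and Sp5, against 13.04% as the product of their single shares. Both Sp5 and Kremen2 were found in 6.61% there, against 5.04%, and in 9.91% of the 646 cells of the other library, against 5.96%. The product lay within the exact binomial interval of the observed share for 43 of 45 pairs of LPC-like PADI4 WT cells, and for 41 of 45 with the label PADI4 cKO. At this depth most pairs in the LPC-like cells could thus not be told from independent detection.

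Levels were also split by the cell cycle, with cells that held a UMI of Mki67 or Top2a counted as cycling. Deeper cells hold such a UMI more often, so the split was repeated with every cell thinned to 5000 UMIs, an alternative added after the data had been seen. Thinned, 86.6% and 85.0% of the GL-like cells and 35.5% and 29.1% of the uHF-like cells were counted as cycling, and free RNA alone could give a UMI to at most 23.2% and 17.9% of cells. The groups are therefore cells with and without such a UMI rather than a strict call. Lef1 in the thinned uHF-like cells was at 79.8 CPM with and 25.4 CPM without such a UMI in the PADI4 WT library, and at 49.3 and 23.7 CPM in the other. In the unthinned cells it was at 137 and 23.8 CPM and at 108 and 16.2 CPM. The thinned ORS-like cells held 46.3 and 20.2 CPM of Lef1, and 50.8 and 29.5 CPM in the library labelled PADI4 cKO. The part of doublets in this split was not tested. In cluster 13 the order was the reverse, with 998 and 1613 CPM in thinned PADI4 WT cells and 1108 and 1344 CPM in the others. The thinned GL-like cells held 833 CPM of Lef1 with and 972 CPM without such a UMI in the PADI4 WT library. In the other library they held 827 and 764 CPM, so the libraries went opposite ways. Nkd2 in the thinned IRS-like cells was lower with such a UMI in both libraries, at 58.8 against 125 CPM and 65.2 against 112.5 CPM. For Lef1 in the LPC-like PADI4 WT cells the log2 ratio was −0.04 (−0.23 to 0.16) unthinned and 0.35 (0.09 to 0.63) thinned, so no direction is given.

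The members were next compared between the libraries. A log2 ratio, with the level labelled PADI4 cKO divided by that labelled PADI4 WT, was taken for the 81 pairs of member and class with at least 100 UMIs. Of these, 5 lay above 0.5 (6.17%) and 8 below −0.5 (9.88%), against 2.4% above and 3.05% below among all pairs of gene and class. The members rest on few classes here, since 6 of the 13 belong to the IFE-like cells and cluster 16. Axin2 and Ctnnb1 passed 0.5 in none of their 9 and 12 classes, with extremes of −0.28 and 0.18 for Axin2 and −0.23 and 0.12 for Ctnnb1. Among single clusters Axin2 was past −0.5 in cluster 1 (−0.62, −1.19 to −0.09) and cluster 10 (−0.61, −1.14 to −0.09). Sp5 and Nkd2 reached 100 UMIs in only 2 classes and 1 class. For Lef1 the ORS-like ratio of 0.04 joined clusters that differed: 0.88 (0.59 to 1.17) in cluster 6, −0.51 (−0.82 to −0.20) in cluster 9 and −2.26 (−3.22 to −1.50) in cluster 17. Without the cells called doublets the values were −0.32 (−0.74 to 0.10) in cluster 6, where the direction turned, and −0.73 (−1.76 to 0.16) in cluster 17.

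In the LPC-like cells no member with at least 100 UMIs passed 0.5 in size. Of all such genes there 2.41% lay above 0.5, and the share below −0.5 is not given here. With so few members, a count of none says little about them. Lef1 was at 374 CPM from 3931 UMIs in the PADI4 WT library and at 405 CPM from 5815 UMIs in the other, a log2 ratio of 0.12 (0.06 to 0.18). With every cell thinned to 2000 UMIs it was −0.053 (−0.25 to 0.14), so the sign changed, though this wider interval also holds 0.12. Inside the PADI4 WT library, LPC-like cells with Y-linked UMIs held 371 CPM and those with Xist UMIs 328 CPM of Lef1, a difference of −0.18 (−0.30 to −0.06) between cells of 1 genotype label. Against the 128 Xist cells alone the library labelled PADI4 cKO was 0.31 higher (0.20 to 0.41), and against the 280 Y-linked cells 0.13 higher (0.06 to 0.20). Sp5 likewise stood at 63.8 and 40.6 CPM in these cells of the PADI4 WT library and at 58.9 CPM in the other.

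With 4 of the 13 pairs, the IFE-like cells, which numbered 650 and 235, held more of them than any other class. Lef1 was at 142 CPM in the PADI4 WT library and at 54.8 CPM in the library labelled PADI4 cKO, a log2 ratio of −1.37 (−1.60 to −1.16). Kremen2 went from 39.8 to 19.5 CPM, a ratio of −1.02 (−1.41 to −0.66), while Tcf7l1 was 0.52 (0.38 to 0.65) and Tcf7l2 0.62 (0.52 to 0.71) higher. The keratins of differentiating epidermis differed in the same cells, with 371 and 49.4 CPM of Krt1 and 386 and 62.1 CPM of Krt10. Within the PADI4 WT library, the 510 IFE-like cells with Y-linked UMIs held 144 CPM of Lef1 and the 48 with Xist UMIs held 70.3 CPM, a log2 ratio of −1.03 (−1.48 to −0.63), with 431 and 66.0 CPM of Krt1. The library labelled PADI4 cKO differed from these 48 cells by −0.37 (−0.81 to 0.12) in Lef1.

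Lef1 in the uHF-like cells was at 89.7 and 61.0 CPM, a ratio of −0.56 (−0.74 to −0.37). Without the cells called doublets they were at 46.4 and 19.5 CPM, a ratio of −1.25 (−1.58 to −0.93). Nearly all of it came from few cells: 10% of the cells held 95.9% and 94.7% of the Lef1 UMIs. The 38 PADI4 WT cells with both Xist and Y-linked UMIs, with a median of 24634 UMIs against 11528 in those with Y-linked UMIs alone, held 364 of the 614 Lef1 UMIs, or 381 CPM. Those with Y-linked UMIs alone held 41.9 CPM and those with Xist UMIs alone 53.2 CPM. The SG-like cells showed the same in small numbers, where 4 cells with both kinds of UMI held 23 of the 28 Lef1 UMIs of the PADI4 WT library.

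Tcf7l1 and Tcf7l2 were lower in cluster 16 of the library labelled PADI4 cKO, at 94.8 and 41.9 CPM (log2 ratio −1.17, −1.62 to −0.75) and at 119 and 79.9 CPM (−0.57, −0.91 to −0.24). The outer root sheath keratin Krt15 stood at 199 and 12.4 CPM there. The 10 cells of cluster 16 with both Xist and Y-linked UMIs held 56 of the 158 Tcf7l1 UMIs of the PADI4 WT library, and without the cells called doublets the Tcf7l1 ratio was −0.75 (−1.24 to −0.28). In cluster 14 Nkd1 was higher by 0.93 (0.52 to 1.35), from 87 and 122 UMIs, and Tcf7l1 lower by −0.72 (−1.22 to −0.24), from 119 and 53 UMIs. Tcf7 was at 27.6 and 18.2 CPM there (−0.59, −1.22 to 0.00). The remaining pairs past 0.5 were Kremen2 in the IRS-like (−0.57) and uHF-like cells (0.55) and Tcf7l2 in cluster 13 (0.50).

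**Figure D5:**
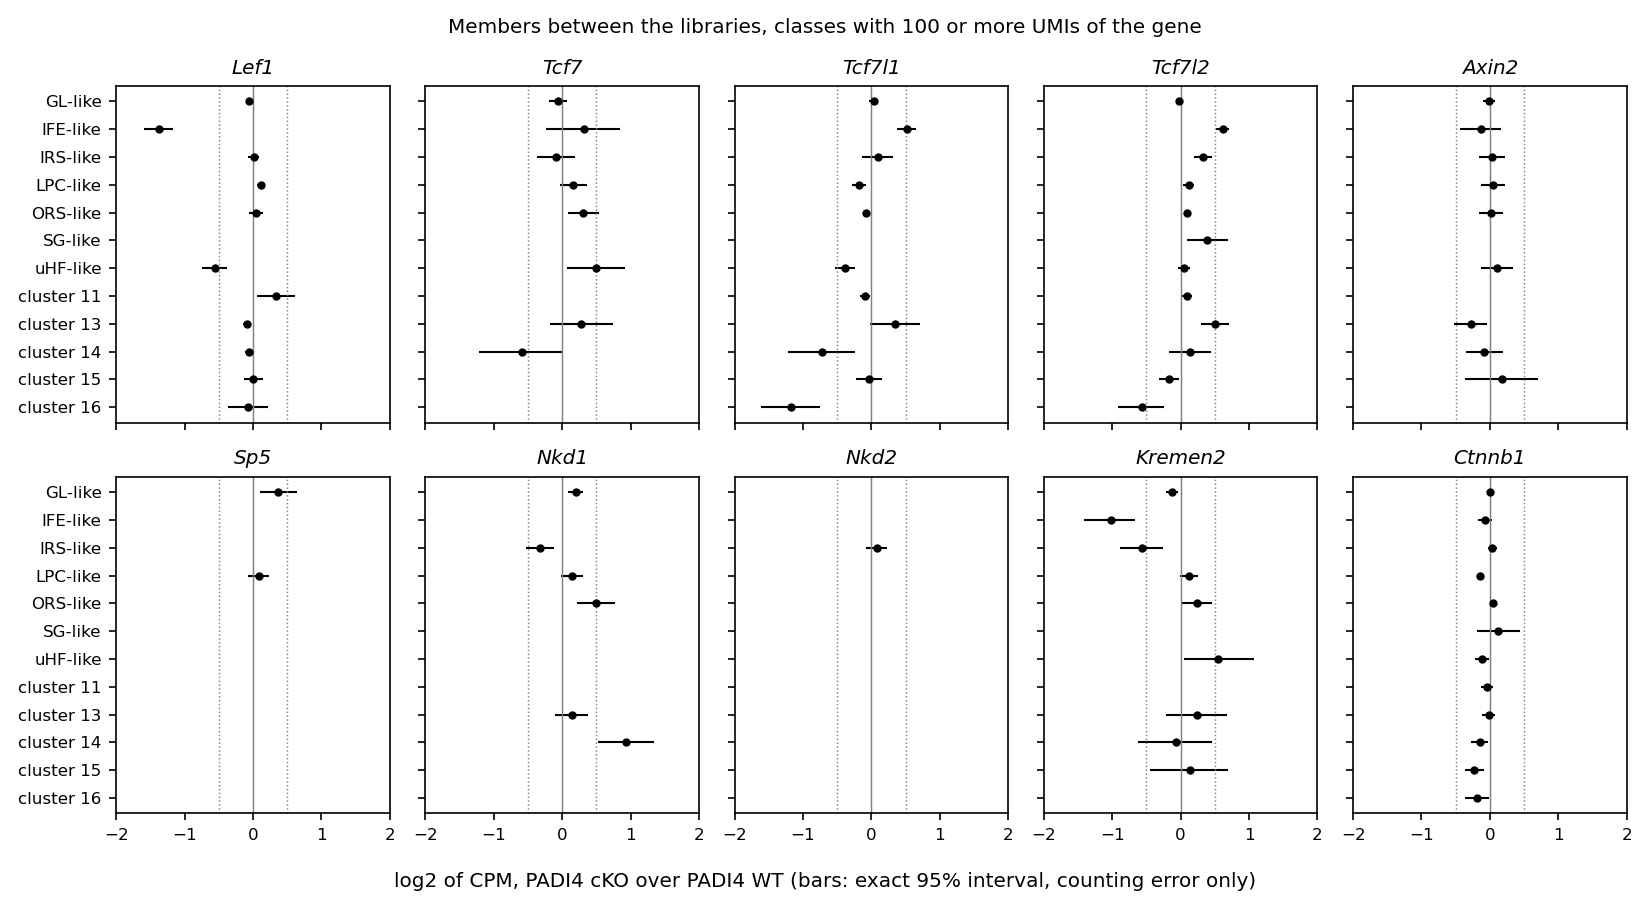
Log2 ratio of CPM, PADI4 cKO over PADI4 WT library (x axis), for each gene (panel) in each class with at least 100 UMIs of it (y axis), with exact 95% intervals for counting error and dotted lines at 0.5 and −0.5. Points cluster around 0, and those farthest out are Lef1 and Kremen2 in the IFE-like cells (−1.37 and −1.02) and Tcf7l1 in cluster 16 (−1.17).

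The other pathway genes were 76 in number, of which 53 reached 20 CPM in some class of both libraries and 35 of these differed by over 4-fold between classes, where 32% of all genes at this level did. Of 548 pairs with at least 100 UMIs, 18 (3.28%) lay above 0.5 and 27 (4.93%) below −0.5, beside the 2.4% and 3.05% of all pairs. None of the 8 measured genes of the cytoplasmic relay, among them Csnk1a1, Gsk3b, and Apc, differed by over 4-fold between classes. Of the ligands and their secretion factors 9 of 10 did, all but Wls. Wnt4 reached 314 and 313 CPM in cluster 14, Wnt6 reached 155 and 163 CPM in the LPC-like cells, and the secretion factor Wls reached 434 and 444 CPM in cluster 13.

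Among the receptors and R-spondin receptors 8 of 12 differed by over 4-fold. The R-spondin receptors Lgr4 and Lgr5 were highest in the ORS-like cells, at 504 and 571 CPM and at 603 and 622 CPM, and Lgr6 in the uHF-like cells, at 614 and 717 CPM. Of the inhibitors 8 of 9 differed by over 4-fold: Znrf3, which removes Frizzled receptors, was highest in cluster 14 at 817 and 982 CPM, Apcdd1 in cluster 13 at 295 and 298 CPM, and Sostdc1, a secreted inhibitor of Wnt and BMP, in the IFE-like cells at 725 and 669 CPM. The list of nuclear partners also held the cell adhesion gene Cdh1, and 6 of its 9 measured genes did, Cdh1 among them. Ctnnbip1, which blocks β-catenin from binding Tcf factors, was highest in cluster 14 at 359 and 341 CPM. Cdh1, which encodes E-cadherin, and the corepressor Tle5, which stayed under 4-fold, were highest in cluster 16, at 346 and 314 CPM and at 234 and 218 CPM. The other response genes included Ccnd1, a cyclin that was highest in cluster 16 at 1155 and 1110 CPM, Sox4, the 1 of the 5 measured that stayed under 4-fold, highest in the LPC-like cells at 521 and 483 CPM, and Cd44, highest in the uHF-like cells at 407 and 455 CPM.

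By the median log2 ratio over the classes, the lowest of these genes between the libraries were Sfrp1 (−0.32), Wnt5a (−0.29), Wif1 (−0.27), Wnt3 (−0.22) and Fzd10 (−0.21), and the highest were Tle1 (0.29), Lgr6 (0.25), Znrf3 (0.22), Tle4 (0.21) and Lgr4 (0.21). None of these medians reached 0.5.

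The levels were also read by a gate on each cell, which took the epithelial marker list with the highest scaled mean among 11. Of 15353 cells, 2555 (16.6%) lay within 0.1 of a second list. Lef1 was then highest in the medulla gate, with 1120 CPM for the label PADI4 WT and 1040 CPM for PADI4 cKO. The cortex gate held 1087 and 913 CPM and the GL gate 972 and 965 CPM, so their order differed between the libraries. The ORS gate was lowest in Lef1 (43.2 and 38.9 CPM) and held 503 CPM of Tcf7l1 and 673 CPM of Tcf7l2 in the PADI4 WT library. Nkd2 in the IRS gate (72.1 CPM) and Sp5 in the LPC gate (24.8 CPM) were again highest. Ctnnb1 was instead highest in the GL gate, at 504 and 494 CPM, against 503 and 479 CPM in the LPC gate. Kremen2 in the PADI4 WT library was higher in the GL gate (57.0 CPM) than in the LPC gate (50.4 CPM). In the other library its order was the reverse (49.5 and 52.7 CPM). Tcf7 was highest in the LPC gate, at 23.6 and 25.7 CPM, close to the GL gate at 22.5 and 24.0 CPM.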

How the data were processed

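The authors deposited counts, whole numbers of UMIs for each gene in each droplet, made with Cell Ranger 7.1.0 (per the file headers) on mm10 (submitters' processing notes) and without normalization or a droplet filter. Whether intronic reads were counted is not given in the sources used here. CellBender and Harmony, which the authors applied later, were not run. Cells were kept from 2000 to 60000 UMIs and from 1000 to 8000 genes, with no more than 20% mitochondrial and 1% hemoglobin UMIs and with a ribosomal share between percentiles 5 and 99. Both libraries were clustered together (Scanpy 1.11.5, leidenalg 0.10.2, 1000 variable genes, 50 components, 15 neighbors, resolution 1) with S and G2M scores regressed out and without the members, other Wnt pathway genes, Padi, cell cycle and sex-linked genes. A name needed at least 3 markers 1.5-fold above the other cells and more than any other list, and no other list was to have more markers among the 10 leading genes, which left clusters 13, 14 and 15 unnamed. Cluster 20, with 45 PADI4 WT cells, stayed out of the classes. Scrublet called 1 doublet in the PADI4 WT library by its automatic threshold, so the threshold of the second library (0.193) served both and called 289 (3.58%) and 300 (4.06%) cells, which were kept except where stated. UMIs were summed per class and library and given as CPM, with ratios (0.5 UMI added) and intervals from the exact conditional binomial distribution. Methods were tested on simulated UMIs that followed the counting model of the intervals, without doublets or differences between cells of a class. Free RNA was estimated from barcodes with fewer than 100 UMIs, scaled by the collagen and hemoglobin UMIs of the epithelial cells. The members, lists and alternatives were chosen with earlier results of these data known. Named pathway genes are, per role, the 3 with the highest summed CPM, and over all roles the 5 highest and 5 lowest median ratios among genes that reached 100 UMIs in 4 classes or more. The genes most like a member were the 3 with the highest r, of which not all are reported here. Genes named beyond these rules (marker genes beside a ratio) were chosen after their values were seen. Promoters are RefSeq windows on GRCm38.p6.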

Additional observations from a re-analysis of the deposited data

How the results depend on the processing

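The 9 members over 4-fold between classes stayed between 7 and 9 under 14 alternatives. The 13 pairs of member and class past 0.5 between the libraries moved to 5 at Leiden resolution 0.5, 6 with the marker gate on each cell, 4 with cells thinned to 2000 UMIs, 5 with a minimum of 500 UMIs per gene and class and 21 with clusters not joined. Fewer or more classes or UMIs enter these by construction. The 7 member pairs with r over 0.7 moved to 11 at resolution 0.5, 12 with the marker gate, 3 with thinning to 2000 UMIs and 15 with clusters not joined. The Lef1 ratio of the LPC-like cells, 0.12, was 0.19 with no cell cycle correction, 0.31 for cells with Xist and no Y-linked UMIs and −0.053 (−0.25 to 0.14) with cells thinned to 2000 UMIs, where it changed sign, and lay within its interval under the other 11 alternatives. The cause was not tested. The share of cluster 14 cells with Lef1 and Axin2, 37.1%, was 21.2% after thinning to 2000 UMIs. The log2 ratio of Lef1 in cycling over other LPC-like cells, −0.04, was 0.20 with the marker gate, 0.18 after thinning to 2000 UMIs and 0.35 after thinning to 5000 UMIs. The level of each member in its highest class over the other classes kept its sign under every alternative run for it. That class was picked from these same data, so a kept sign says little. The size left its interval in from 1 of 12 alternatives for Nkd1 to 12 of 12 for Tcf7l2. An alternative without the class was not run, which left 9 for Lef1 and for Axin2. No paired analysis was possible because each label has 1 library. Empty-droplet UMIs were subtracted in 1 alternative, and free RNA limits what can be said of levels under about 1 CPM of Sp5 and Nkd2.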

Other observations

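Cells outside the epithelial classes also held the members, in small numbers. The 48 and 26 fibroblast-like cells had 46.1 CPM (32.1 to 64.1) and 32.0 CPM (17.9 to 52.8) of Nkd2, from 35 and 15 UMIs, above every epithelial class except the IRS-like cells in both libraries. Tcf7l1 stood at 229 and 312 CPM and Lef1 at 79.0 and 44.8 CPM in them. The 26 and 10 melanocyte-like cells had 214 CPM (166 to 270) and 273 CPM (205 to 357) of Lef1, from 70 and 53 UMIs, and 531 and 536 CPM of Ctnnb1.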
